A study of Mus musculus with 8 samples.

Results

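The genes described here are 10 that encode neutrophil granule contents and the cytosolic proteins stored beside them: Mpo, Ltf, Camp, Lcn2, Ngp, Cd177, Mmp8, Pglyrp1, S100a8 and S100a9. They were chosen by name, as every probe set of the array whose single gene symbol is on that list. Earlier results of these data were known when the list was made. Each gene had 1 probe set, which makes 10 of the 22690 probe sets of the Affymetrix MOE430A array, and 10 of 12393 genes with a symbol of their own. RNA was measured in dendritic cells grown in culture from bone marrow of male mice 9 weeks old, on 8 arrays. In VDRmut mice the part of the vitamin D receptor that binds DNA is deleted, and VDRwt mice are the wild-type controls. For each genotype there was 1 array of cells given VD3 (1,25-dihydroxyvitamin D3, 1e-06 M, 30 min ahead of the cytokine) and then TNFa (50 ng/ml, 4 h), 1 of TNFa alone, 1 of VD3 alone and 1 of untreated cells. All cultures shared the same history: expansion of progenitors with SCF, hyperIL-6, Flt-3L, IGF-1, dexamethasone and GM-CSF, then 7 days of differentiation in GM-CSF. The labels do not say how many mice each genotype's culture came from, so a difference between the genotypes may be a difference between a pair of cultures.

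Neutrophils fill their granules in waves as they mature in the bone marrow. Primary (azurophil) granules, with myeloperoxidase and serine proteases, form at the promyelocyte stage, secondary (specific) granules, with lactoferrin, cathelicidin and lipocalin 2, form later, and tertiary (gelatinase) granules last. Transcription factors of the C/EBP family, C/EBP epsilon above all for the secondary granules, switch these genes on in turn. The calcium-binding proteins S100A8 and S100A9 form the heterodimer calprotectin, which fills the neutrophil cytosol and is also made by monocytes. Dendritic cells and neutrophils arise from shared myeloid progenitors, so a bone marrow culture with GM-CSF can hold both lineages. In human cells the gene for cathelicidin is a direct target of the vitamin D receptor, through a promoter element that the mouse gene lacks.

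Several features of the arrays bear on what follows. Each array had a 2% trimmed mean signal of 200.1, and between 46.45% and 51.54% of its probe sets were called Present. The better detected of the 2 Vdr probe sets read 43.7 (Absent), 6.3 (Absent), 67.2 and 12.4 (Absent) in VDRmut (VD3+TNFa, TNFa, VD3, untreated). In VDRwt it read 104.0, 33.2 (Absent), 185.7 and 93.7, and where it lies relative to the deletion is not given. The other Vdr probe set was Present on 1 array. On the arrays with TNFa alone the control for the 5' end of 18S RNA read 6847.0 (VDRmut) and 9028.2 (VDRwt), against 3.5 to 224.0 on the other 6. Actin controls gave a 5'/3' signal ratio of 0.449 for VDRmut cells with VD3+TNFa and 0.444 for untreated VDRmut cells, against 0.781 to 0.889 elsewhere. The VDRwt arrays were scanned on 2 days that coincide with TNFa, so day and TNFa cannot be told apart there. In VDRwt the VD3+TNFa array was run with fluidics protocol FlexGE-WS2 and the others with EukGE-WS2. Protocol and that treatment therefore cannot be told apart in VDRwt. No scan day or fluidics protocol is given for VDRmut. Dendritic cell markers were detected: all 12 genes of that list (Itgax, class II genes, Cd74, Flt3 and others) were Present on at least 2 arrays, Flt3 on 3 only. Their summed signals were 32754.8 to 46662.3 in VDRmut and 27836.3 to 48490.6 in VDRwt.

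Most of the granule genes were higher in VDRmut than in VDRwt cells. Of the 10 genes, 6 passed the test for genotype (adjusted p below 0.05), all of them higher: the secondary granule genes Camp, Ltf, Ngp and Cd177, and S100a9 and S100a8 of the cytosol. The sizes of these 6 ran from 2.67-fold (S100a8) to at least 5.67-fold (Camp). Over the whole array only 0.0546% of the 12832 probe sets tested passed as higher, which is 7 probe sets, so 6 of those 7 were granule genes. Because the list was made with earlier results of these data known, this share describes the genes and does not test the list. Camp and Mpo, Present on 0 and 1 VDRwt arrays, passed the filter on Present calls only through the VDRmut arrays, and Mpo was not called. Without Camp the counts were 5 of 9 granule genes and 5 of 6 probe sets. The other was Rnase2a, a ribonuclease of the eosinophil-associated family (log2 change 2.76 ± 0.25 (SE), adjusted p = 0.00576), and the 1 probe set called lower was that of Ghitm, a mitochondrial inner membrane protein. The fitted genotype difference was above 0 for all 10 genes, with a median of 1.47 on the log2 scale beside 0.00 over all probe sets. In RNA from a whole culture, more cells of a type and more RNA per cell cannot be told apart.

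**Figure D1:**
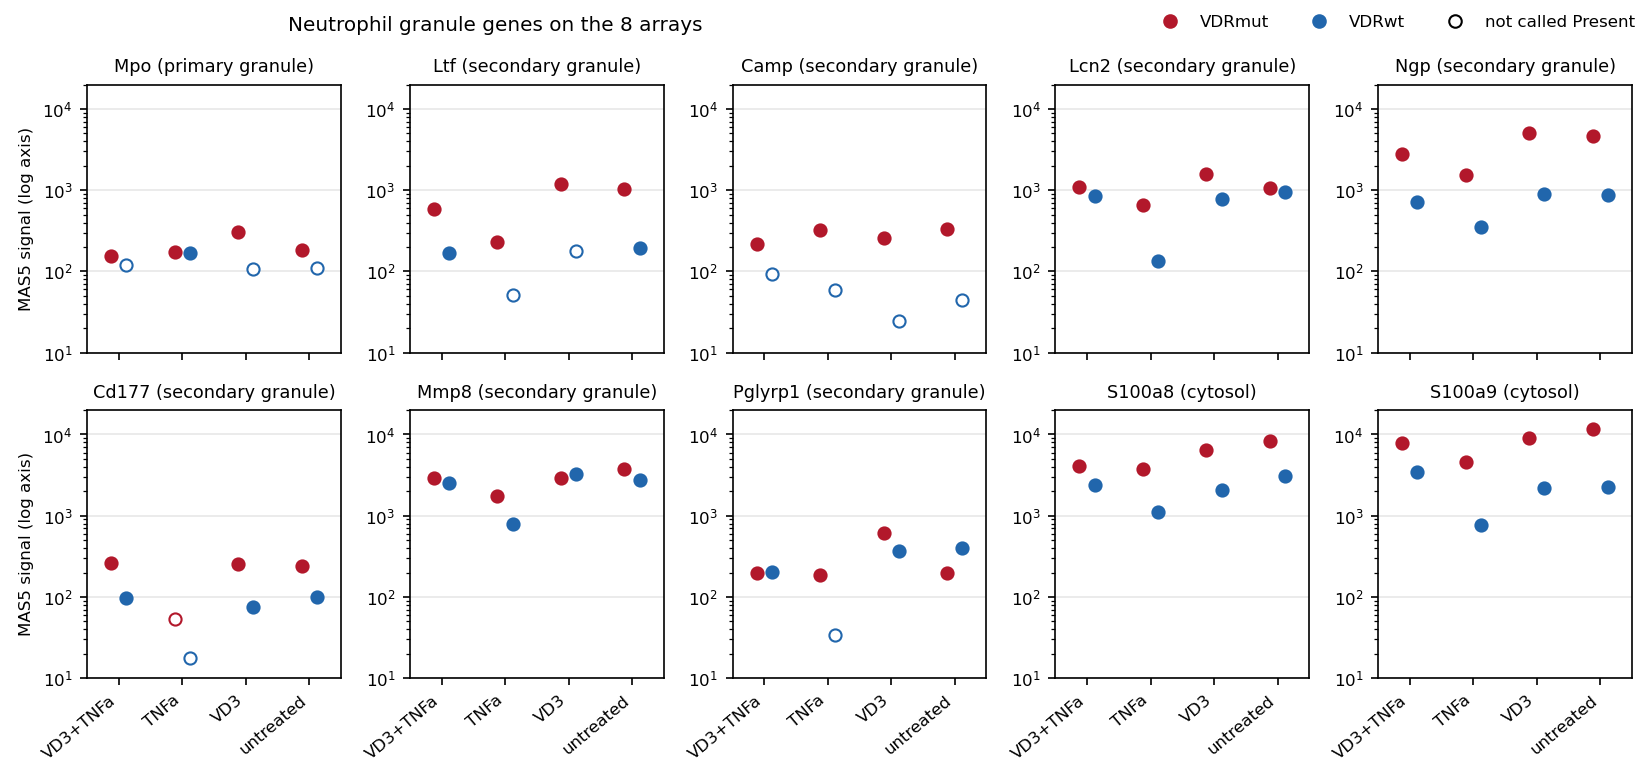
MAS5 signal (log axis) of each of the 10 granule genes on the 8 arrays, 1 point per array, by treatment and genotype, with open points where the probe set was not called Present. For Camp, Ltf, Ngp, S100a8 and S100a9 the lowest VDRmut point is above the highest VDRwt point.

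Mpo encodes myeloperoxidase, the haem enzyme of primary granules that makes hypochlorous acid, and it is switched on earliest. Its signal was 154.3 (VD3+TNFa), 175.9 (TNFa), 307.5 (VD3) and 182.2 (untreated) in VDRmut cells, all Present. In VDRwt cells it was 119.0, 166.3, 107.2 and 110.0 in the same order of treatments, Present with TNFa alone and Absent on the rest. The groups overlap, because the VDRwt TNFa array lies above the VDRmut VD3+TNFa array, and the genotype difference did not pass (log2 0.68 ± 0.24 (SE), adjusted p = 0.626).

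Among secondary granule genes, Ngp, which encodes neutrophilic granule protein, a cystatin-like protein of mouse granules, had the smallest p of all probe sets tested. Its signal was 2782.1 (VD3+TNFa), 1531.6 (TNFa), 4988.7 (VD3) and 4703.7 (untreated) in VDRmut cells, against 725.5, 350.6, 891.0 and 864.4 in VDRwt cells, in the order that the other genes' values follow too. Every VDRmut array was above every VDRwt array, and the difference was 4.75-fold (log2 2.25 ± 0.15 (SE), limma adjusted p = 0.00158). Ltf encodes lactoferrin, the iron-binding protein that defines the secondary granule. It read 581.5, 228.5, 1192.2 and 1043.6 in VDRmut cells, against 168.2, 51.8 (Absent), 179.1 (Marginal) and 191.8 in VDRwt cells. The groups again did not overlap, and Ltf was 4.85-fold higher in VDRmut (log2 2.28 ± 0.19 (SE), adjusted p = 0.00464).

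Camp encodes the mouse cathelicidin, the precursor of the antimicrobial peptide CRAMP. It was Present on all 4 VDRmut arrays, at 219.1, 328.0, 257.6 and 337.3, and Absent on all 4 VDRwt arrays, at 93.2, 59.4, 24.7 and 44.1. From the means of the log2 signals, with the Absent signals at their measured values, its level was at least 5.67-fold higher in VDRmut (log2 2.50 ± 0.32 (SE), adjusted p = 0.0436). That bound leaves out the error of the fit, and with a signal floor of 50 the log2 difference was 2.20. Cd177, a surface glycoprotein of neutrophils stored in secondary granule membranes, read 261.7, 53.6 (Absent), 257.5 and 243.3 in VDRmut cells, against 98.1, 17.5 (Absent), 74.5 and 99.2 in VDRwt cells. It was higher in VDRmut in each matched pair, by 2.88-fold (log2 1.53 ± 0.19 (SE), adjusted p = 0.0436). The groups overlap because the VDRmut TNFa array fell below 3 of the VDRwt arrays.

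The other secondary granule genes did not pass for genotype. Lcn2, lipocalin 2, which binds bacterial siderophores, read 1088.5, 648.4, 1594.6 and 1073.9 in VDRmut cells, against 856.6, 133.4, 775.9 and 961.1 in VDRwt cells. Its difference was 0.35, 2.28, 1.04 and 0.16 on the log2 scale in the VD3+TNFa, TNFa, VD3 and untreated pairs, largest where TNFa was given alone (fit 0.96 ± 0.31 (SE), adjusted p = 0.622). Mmp8, neutrophil collagenase, was Present on every array, at 1738.7 to 3721.0 in VDRmut cells and at 797.1 to 3261.1 in VDRwt cells (log2 0.40 ± 0.20 (SE), adjusted p = 0.716). Pglyrp1, a peptidoglycan recognition protein of neutrophil granules, read 196.3, 185.2, 611.9 and 196.6 in VDRmut cells, against 203.3, 34.1 (Absent), 365.5 and 395.3 in VDRwt cells. Its order between the genotypes changed with treatment, and the untreated pair ran the other way (log2 -1.01).

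Both calprotectin genes were Present on all 8 arrays. S100a9 read 7945.1, 4569.2, 9128.2 and 11837.4 in VDRmut cells, against 3457.7, 758.5, 2170.4 and 2278.5 in VDRwt cells. S100a8 read 4069.9, 3758.9, 6498.2 and 8346.7 in VDRmut cells, against 2357.1, 1111.0, 2048.3 and 3065.8 in VDRwt cells. Neither overlapped between the genotypes. S100a9 was 4.17-fold higher in VDRmut (log2 2.06 ± 0.22 (SE), adjusted p = 0.0191) and S100a8 2.67-fold (log2 1.41 ± 0.18 (SE), adjusted p = 0.0436). The S100a8 probe set carries Affymetrix's s suffix, for a set that can match more than 1 transcript.

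**Figure D2:**
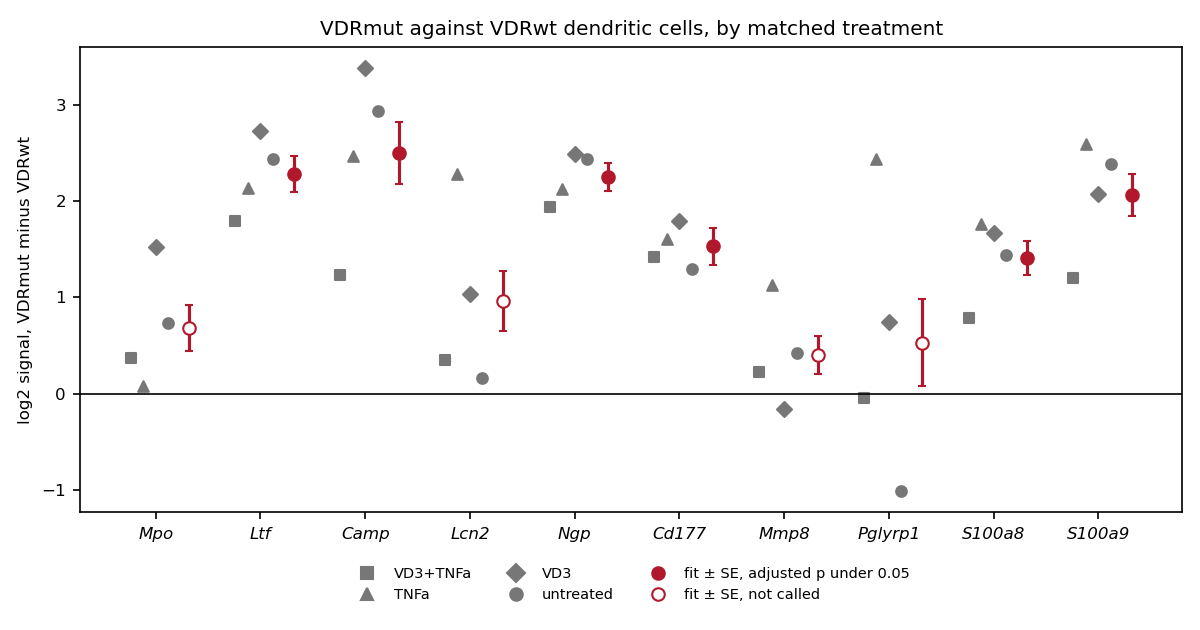
Log2 signal of VDRmut minus VDRwt for each granule gene: grey marks are the 4 treatment-matched pairs of arrays, red marks the fitted difference ± SE, filled where the adjusted p is under 0.05. All 4 pairs lie above 0 for every gene but Mmp8 and Pglyrp1, and the 6 filled genes have fits of 1.41 to 2.50.

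Counted over genes, 8 of 10 were higher in VDRmut in all 4 matched pairs, against 7.58% of all probe sets tested, and for 5 of 10 every VDRmut array was above every VDRwt array, against 0.810%. Without Camp these were 7 and 4 of 9. Mpo is among those 7 and, Present on 1 VDRwt array, also passed the filter on Present calls only through the VDRmut arrays. Within arrays, the genes differed in how much they changed. The genotype difference of Ngp exceeded that of Mmp8 by 1.71, 1.00, 2.64 and 2.03 on the log2 scale in the VD3+TNFa, TNFa, VD3 and untreated pairs (mean 1.85 ± 0.68, SD over 4 pairs), and that of Mpo by 1.56, 2.05, 0.96 and 1.72 (mean 1.57 ± 0.45, SD). Against Lcn2 and Pglyrp1 the TNFa pair ran the other way, at -0.15 and -0.31, and the means were 1.29 ± 1.03 and 1.72 ± 1.55 (SD). These genes were picked after their values were seen, so no test was made.

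The number of genes called for genotype was 1 when the VD3 array of either genotype was left out, 2 without the VDRmut untreated, VDRwt untreated or VDRwt TNFa array, 3 without the VDRmut TNFa array or without both arrays of TNFa alone, and 5 without both arrays of low actin ratio. It was also 2 without the filter on low signals, and 0 with a signal floor of 50, with eBayes without trend or in a model with 1 TNFa effect for both VD3 states and a VD3 effect in each genotype. Over all alternatives the log2 difference kept its sign for each of the 6 genes and ranged from 2.17 to 2.35 for Ngp, which was called under 14 of 17, and from 2.12 to 2.44 for Ltf, called under 11 of 16. S100a9 was called under 8 of 17, S100a8 under 6 of 17, Camp under 5 of 16 and Cd177 under 2 of 16. These alternatives are not independent of one another. Leaving out either array of a matched pair gives the same genotype difference, and the series table holds nearly the same intensities as the main fit.

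Promoters are shown for the genes with the clearest genotype difference (Ngp, Ltf, S100a9 and Camp) and for Mpo, of the primary granule, which did not pass. Each line gives the 250 bases before the annotated start from RefSeq, 5′ to 3′, with matches to the C/EBP motif TTNNGNAA on either strand in capitals.
Ngp, GRCm38.p6 chr9:110419558-110419807, plus strand: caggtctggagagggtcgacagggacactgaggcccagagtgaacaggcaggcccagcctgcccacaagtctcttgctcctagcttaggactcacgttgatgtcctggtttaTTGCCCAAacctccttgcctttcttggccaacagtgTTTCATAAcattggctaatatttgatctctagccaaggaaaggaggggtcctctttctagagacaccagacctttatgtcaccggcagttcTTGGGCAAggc
Ltf, GRCm38.p6 chr9:111019042-111019291, plus strand: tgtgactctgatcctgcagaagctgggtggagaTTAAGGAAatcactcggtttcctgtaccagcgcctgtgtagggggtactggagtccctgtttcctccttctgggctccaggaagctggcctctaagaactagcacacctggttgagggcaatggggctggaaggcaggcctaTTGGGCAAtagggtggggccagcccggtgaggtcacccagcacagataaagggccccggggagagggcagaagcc
S100a9, GRCm38.p6 chr3:90695722-90695971, minus strand: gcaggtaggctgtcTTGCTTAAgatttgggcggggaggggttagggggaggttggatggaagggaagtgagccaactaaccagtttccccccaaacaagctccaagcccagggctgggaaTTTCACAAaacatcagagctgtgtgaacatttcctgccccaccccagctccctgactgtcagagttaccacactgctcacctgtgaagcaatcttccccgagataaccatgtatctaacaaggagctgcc
Camp, GRCm38.p6 chr9:109849457-109849706, minus strand: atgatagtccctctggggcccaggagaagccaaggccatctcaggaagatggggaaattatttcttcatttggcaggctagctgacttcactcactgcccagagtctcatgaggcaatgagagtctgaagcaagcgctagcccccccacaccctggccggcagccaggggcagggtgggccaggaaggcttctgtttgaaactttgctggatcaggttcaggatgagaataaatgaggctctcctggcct
Mpo, GRCm38.p6 chr11:87793534-87793783, plus strand: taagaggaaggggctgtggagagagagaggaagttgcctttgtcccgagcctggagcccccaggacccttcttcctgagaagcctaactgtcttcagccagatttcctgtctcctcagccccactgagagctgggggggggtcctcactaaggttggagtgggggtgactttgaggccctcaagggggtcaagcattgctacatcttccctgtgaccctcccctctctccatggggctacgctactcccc
The match nearest the start of Ngp lies 11 to 4 bases before it, and that of Ltf 75 to 68 bases before it. Both read TTGGGCAA. Of the 10 promoters, 7 hold at least 1 match (all but Camp, Mpo and Pglyrp1), against 36.9% of 27025 mouse promoters of the same length. The PU.1 motif GAGGAA was in 7 of 10, against 23.1%. The NF-kB motif was in 5 of 10, against 45.4%. The vitamin D receptor direct repeats were in 0 of 10, against 3 of all 27025 promoters. Both strands were searched, and in the 10 promoters no match of 1 motif overlapped a match of another. These matches describe letters in the window only.

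In the RefSeq assembly S100a8 and S100a9 are neighbours on chromosome 3, with no protein-coding gene between them. Camp, Ngp and Ltf lie on chromosome 9 in that order, with 28 other protein-coding genes from the first to the last. Of these 28, 9 were measured by a probe set Present on at least 2 arrays, and 0 of those 9 were called for genotype by limma (log2 differences -0.57 to 0.66, median 0.10). With 0.0623% of all probe sets called in either direction, this count does not set these neighbours apart from other genes. Camp, Ngp and Ltf themselves had 2.50, 2.25 and 2.28.

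Most granule genes were lower in cells given TNFa alone than in untreated cells. Of the 10 genes, 7 fell: Cd177, Ltf, Lcn2, Mmp8, Ngp, S100a9 and S100a8, against 5.39% of all probe sets called lower. Pglyrp1 did not pass (adjusted p = 0.105): it read 185.2 with TNFa against 196.6 in untreated VDRmut cells, and 34.1 (Absent) against 395.3 in VDRwt cells. Mpo and Camp had fitted changes of 0.27 ± 0.34 and 0.19 ± 0.45 on the log2 scale (SE), neither called.

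Cd177 had the largest of these falls, to 53.6 in VDRmut and 17.5 in VDRwt cells with TNFa, both Absent, against 243.3 and 99.2 in untreated cells of the same genotypes. From the means of the log2 signals the fall was at least 5.07-fold (log2 -2.34 ± 0.27 (SE), adjusted p = 0.00187). With a signal floor of 50 its log2 change was -1.59. Ltf fell 4.11-fold (log2 -2.04 ± 0.27 (SE), adjusted p = 0.00293), with changes of -2.19 in VDRmut and -1.89 in VDRwt. Lcn2 is known as a gene that inflammatory cytokines induce in many cell types, and here its log2 change with TNFa was -0.73 in VDRmut and -2.85 in VDRwt (fit -1.79 ± 0.44 (SE), adjusted p = 0.0323). Ngp, Mmp8, S100a9 and S100a8 fell by 1.46, 1.45, 1.48 and 1.31 on the log2 scale, each lower in both genotypes. With scan day as a block 3 genes were called in place of 7. In that fit all VDRmut arrays form 1 block, as their days are not given. Day and TNFa coincide in VDRwt, so the TNFa effect averaged over the VD3 states comes from VDRmut alone. Markers of other cells moved in both directions in the same comparison. In the macrophage and monocyte list 3 of 6 fell (Ccr2 -3.25, Mrc1 -1.55 and Adgre1 -0.95 on the log2 scale). In the eosinophil list 2 of 3 fell (Siglecf -2.62 and Epx -1.29). Of the 12 dendritic cell markers 1 fell, Itgax (-1.88), and 5 rose (Cd83 2.83, Zbtb46 2.40, Ccr7 2.10, Cd86 2.05 and Flt3 1.37). Cpa3 of the mast cell and basophil list rose too (1.80). The summed macrophage and monocyte signals ran from 13104.1 to 15860.1 in VDRmut and from 8804.0 to 15514.3 in VDRwt, lowest with TNFa alone in VDRwt, and the part of these cells in the result was not tested.

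In cells that had VD3 first, no granule gene was called for TNFa. With VD3, 0 of the 10 genes passed in limma for TNFa, against 103 of 12832 probe sets called in either direction and 0.164% called lower. This count does not set the granule genes apart from other genes. Of the 10, 1 had an unadjusted limma p under 0.05, Ngp (log2 -0.57 ± 0.21 (SE), adjusted p = 0.169), against 2859 of all 12832 probe sets. Without VD3, 8 of 10 were lower in both genotypes, against 31.8% of all probe sets, and with VD3 it was 3 of 10, against 37.1%. The median log2 change of the 10 was -0.22 with VD3 (-0.07 over all probe sets) and -1.47 without it (0.04 over all probe sets).

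**Figure D3:**
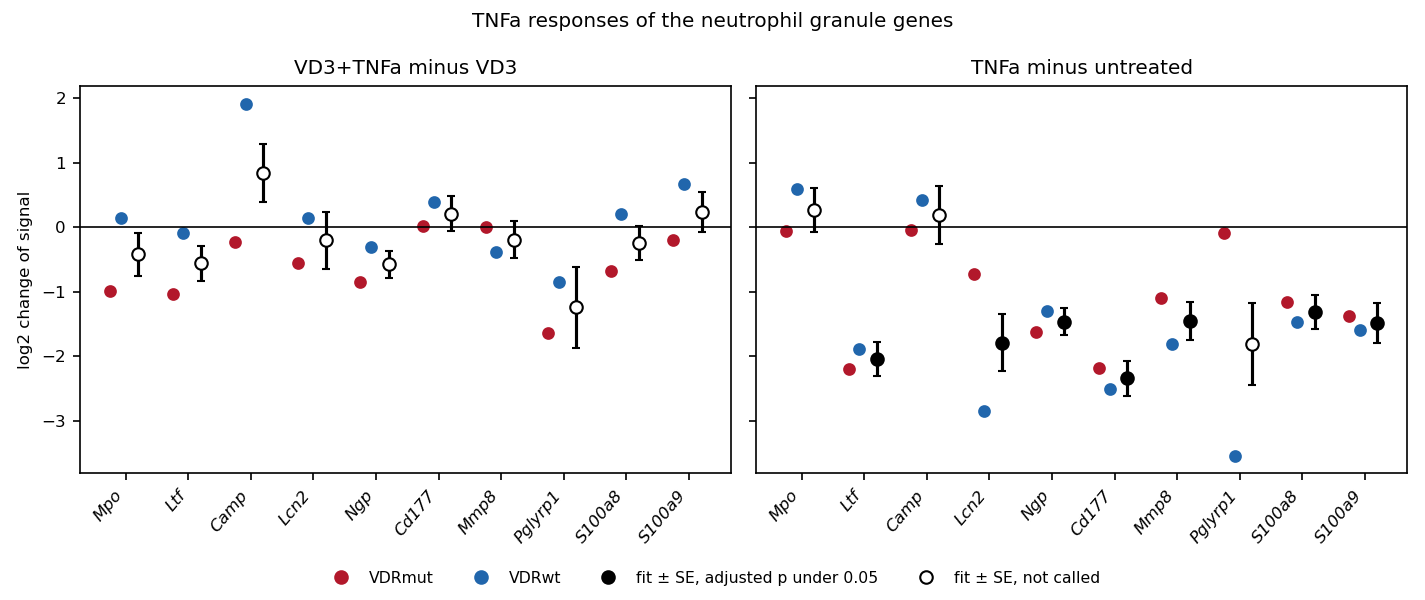
Log2 change of signal with TNFa for each granule gene, in cells given VD3 first (left, VD3+TNFa minus VD3) and without VD3 (right, TNFa minus untreated): coloured points are single pairs of arrays of each genotype, black marks the fit ± SE, filled where the adjusted p is under 0.05. On the right 7 genes are filled and lie between -2.34 and -1.31, and on the left none is.

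The difference between these TNFa responses was tested directly. It passed for 1 of 10 genes, Cd177, against 0.959% of all probe sets called in that direction: its log2 change with TNFa was 0.02 in VDRmut and 0.40 in VDRwt with VD3, against -2.18 and -2.50 without it (difference 2.55 ± 0.38 (SE), adjusted p = 0.0224). For S100a9 the difference was 1.72 ± 0.44 and for Ltf 1.48 ± 0.38 (SE), both with adjusted p = 0.0823. It was above 0 for 9 of 10 genes, Mpo being the exception (-0.69 ± 0.49 (SE)).

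Most granule genes were higher in cells given VD3 and TNFa than in cells given TNFa alone. Of the 10 genes, 6 passed as higher, against 3.40% of all probe sets: Cd177 (at least 5.23-fold, adjusted p = 0.00355), Lcn2 (3.28-fold, adjusted p = 0.0495), Ltf (2.87-fold, adjusted p = 0.0128), S100a9 (2.82-fold, adjusted p = 0.0241), Mmp8 (2.30-fold, adjusted p = 0.0398) and Ngp (1.94-fold, adjusted p = 0.0329). This comparison shares the arrays of TNFa alone with the TNFa comparison above, so the same low signals enter both. Both genotypes had higher values with VD3 for each of these 6: for Cd177 the log2 change was 2.29 in VDRmut and 2.49 in VDRwt, and for Ltf 1.35 and 1.70. Ccr2 (2.26) and Mrc1 (1.20) of the macrophage and monocyte list and Siglecf (2.31) and Epx (1.22) of the eosinophil list were higher in it too on the log2 scale. Of the dendritic cell list Itgax was higher (1.66), and 4 genes were lower (Ccr7 -2.13, Cd83 -2.10, Zbtb46 -1.44 and Flt3 -1.33). Cpa3 of the mast cell and basophil list was also lower (-1.79). The part of these cells in the result was not tested.

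Both arrays with TNFa alone are those of high 18S signal, and the part of that in these results was not tested. Without the VDRwt TNFa array 3 genes were called for TNFa and 1 for VD3 among TNFa cells, and without the VDRwt untreated array 4 were called for TNFa. Leaving out VD3+TNFa cells gave 2 genes (VDRmut left out) or 1 gene (VDRwt left out) for VD3 among TNFa cells, and for the difference between the TNFa responses 0 without any 1 of 6 arrays and 3 without the VDRmut TNFa array.

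No granule gene was called for VD3 given without TNFa. Of the 10 genes, 0 passed in limma, against 0.00% of all probe sets called in either direction, so this count does not set the granule genes apart. An unadjusted limma p under 0.05 was found for 0 of the 10, against 977 of all 12832 probe sets. Camp, the vitamin D target of human cells, read 257.6 with VD3 and 337.3 without it in VDRmut, and 24.7 with VD3 and 44.1 without it in VDRwt, both Absent (fit -0.61 ± 0.45 (SE) on the log2 scale, adjusted p = 0.681). The largest fitted change was that of Pglyrp1 (0.76 ± 0.63 (SE)), which read 611.9 with VD3 and 196.6 without it in VDRmut but 365.5 and 395.3 in VDRwt.

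Whether the responses differed between the genotypes was tested by interaction terms. For the TNFa response by genotype 0 of 10 genes passed in limma and 1 had an unadjusted p under 0.05, Camp (log2 -1.31 ± 0.49 (SE), adjusted p = 0.874), against 0.00% of all probe sets. For the VD3 response by genotype 0 of 10 passed and 0 had an unadjusted p under 0.05, again against 0.00%. Over all 12832 probe sets an unadjusted limma p under 0.05 was found for 619 (TNFa response) and 390 (VD3 response). The counts of calls therefore do not set the granule genes apart from other genes. These tests had 2 residual degrees of freedom, and a p that misses the threshold does not show that the responses were alike. With TNFa alone Pglyrp1 had log2 changes of -0.09 in VDRmut and -3.54 in VDRwt (interaction 1.33 ± 0.85 (SE), adjusted p = 0.874).

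From 4 further lists of the neutrophil programme, 36 of 49 genes were on the array, and 0 of the 32 that were Present on at least 2 arrays were called for genotype by limma. With 0.0623% of all probe sets called in either direction, this count does not set these lists apart from other genes. Closest was Stfa3, a cysteine protease inhibitor of the stefin family found in mouse neutrophils (log2 1.72 ± 0.24 (SE), adjusted p = 0.0686). It read 175.5, 146.2, 68.9 and 202.5 in VDRmut cells against 68.9, 39.7 (Absent), 27.5 (Absent) and 40.7 (Absent) in VDRwt cells. Of the other primary granule genes, Ms4a3 was Present on all 8 arrays (log2 0.71, adjusted p = 0.626). Elane, neutrophil elastase, was Absent on all 8 arrays, with signals of 147.5 to 229.1 in VDRmut and 78.1 to 119.1 in VDRwt. Of the other secondary and tertiary granule genes, Mmp9, gelatinase B, was Present on 4 of 8 arrays. It read 101.0 to 152.6 in VDRmut and 70.6 to 104.2 in VDRwt (log2 0.59, adjusted p = 0.622). Csf3r, the G-CSF receptor of the neutrophil lineage, differed by 0.03. Stfa3, Elane, Mmp9 and Csf3r were chosen for mention after their values were seen.

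With TNFa alone 4 of these 32 genes fell and 1 rose, against 5.39% of all probe sets called lower and 5.66% called higher. Those that fell were Ltb4r1, a receptor for leukotriene B4, Trem1, an amplifying receptor of myeloid cells, Wfdc21 (log2 -2.01) and S100a6 (-1.08), a calcium-binding protein of the same family as S100a8. Ltb4r1 was Absent with TNFa alone (25.9 in VDRmut, 5.0 in VDRwt), and so was Trem1 (24.5 and 12.7), which was Present on 1 of 2 untreated arrays. With these Absent signals at their measured values, Ltb4r1 fell at least 42.5-fold (log2 -5.41 ± 0.64 (SE)). On the same basis Trem1 fell at least 5.65-fold (log2 -2.50 ± 0.41 (SE)). These bounds leave out the error of the fit, and a higher signal floor can give smaller folds. The chemokine receptor Cxcr4, which holds neutrophils in the bone marrow, rose (log2 2.28). Their median genotype and TNFa changes by list lay between 0.03 and 0.71 and between -0.21 and -0.04.

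**Figure D4:**
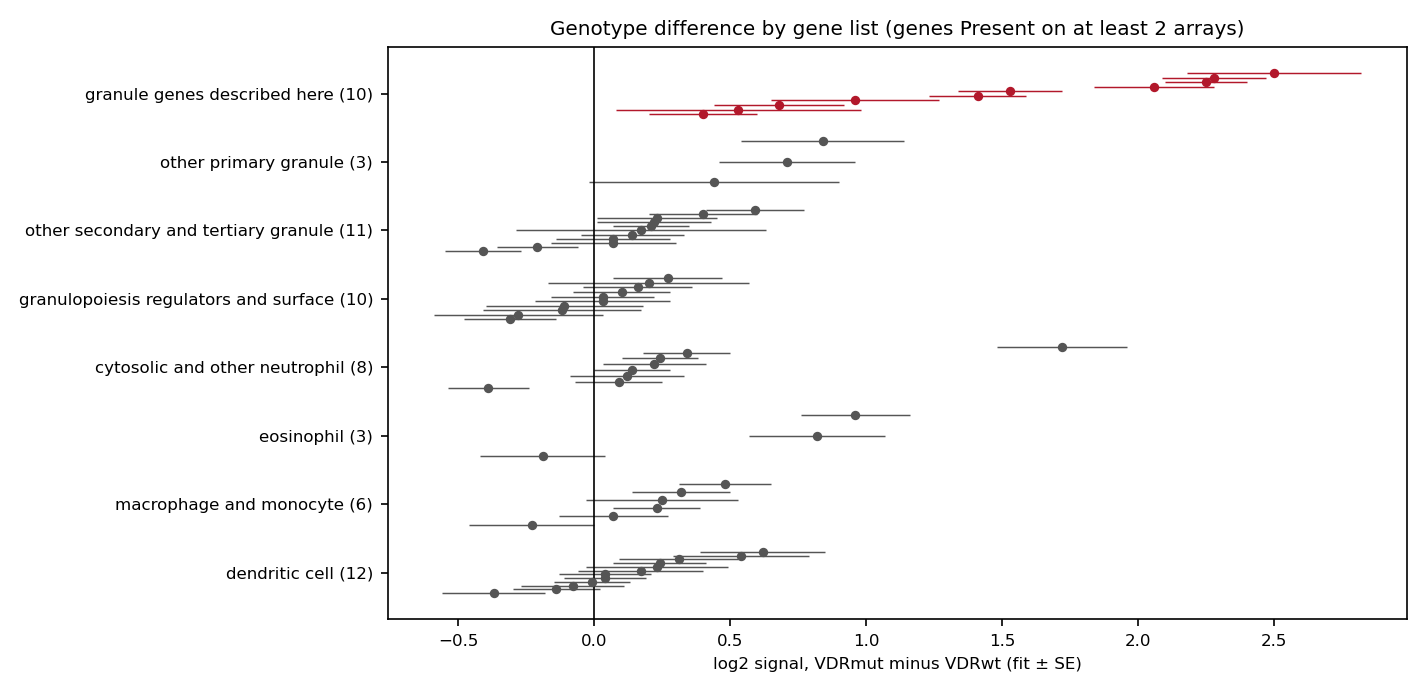
Fitted log2 difference of VDRmut minus VDRwt (points, with bars of ± SE) for the 10 granule genes in red and for genes of other lists in grey, each Present on at least 2 arrays, with the number of genes in parentheses. The 6 granule genes of the upper group lie at 1.41 to 2.50, and of the grey genes Stfa3 alone exceeds 1.

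Markers of other cells the culture could hold were summed for each array. Summed over the mature neutrophil list (4 of 6 genes on the array), signals ran from 517.7 to 672.0 in VDRmut and from 409.5 to 578.8 in VDRwt. Cxcr2, the chemokine receptor of mature neutrophils, was Absent on all 8 arrays. Over the immature granulocyte and progenitor list (8 of 9 genes) the sums ran from 592.4 to 921.3 in VDRmut and from 428.7 to 537.7 in VDRwt. These sums include undetected signals: Elane and Cd34 were Absent on all 8 arrays, and Prtn3 was Present on 1. Elane alone read 147.5 to 229.1 in VDRmut and 78.1 to 119.1 in VDRwt. Over the eosinophil list (4 of 7 genes) the sums ran from 476.9 to 1503.8 in VDRmut and from 517.2 to 893.1 in VDRwt. The eosinophil peroxidase gene Epx had a log2 difference of 0.96 ± 0.20 (SE, adjusted p = 0.367). None of the genes on these lists was called for genotype, against 0.0623% of all probe sets in either direction. The part of these cell types in the granule gene results was not tested.

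The granule genes' profiles over the 8 arrays were alike to different degrees. As a description over arrays that share genotypes and treatments, the Pearson correlation of each gene's log2 signal with the mean of the other 9 was 0.980 for Ltf, 0.968 for S100a9, 0.958 for Ngp and for S100a8 and 0.919 for Cd177. It was 0.865 for Lcn2, 0.750 for Mmp8, 0.623 for Pglyrp1, 0.604 for Camp and 0.476 for Mpo. The mean centred log2 signal of the 10 was 0.62, 0.00, 1.24 and 1.05 on the VDRmut VD3+TNFa, TNFa, VD3 and untreated arrays, and -0.30, -1.86, -0.49 and -0.27 on the VDRwt arrays in the same order. The array highest in these genes was thus that of VDRmut cells with VD3, and the lowest that of VDRwt cells with TNFa alone. Among 10473 other probe sets Present on at least 4 arrays, the 8 most like this mean were those of Ift27, Tpgs2, P2ry4, Mmp9, Cdkn2d, Bud23, Cdc25a and Ifitm6 (r from 0.945 to 0.962), with genotype differences of 0.29 (Cdkn2d) to 1.46 (Ifitm6) on the log2 scale.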

How the data were processed

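Signal intensities and detection calls (Present, Marginal or Absent) for 22690 probe sets were read from the 8 deposited array tables. The submitters' processing notes name MAS5, with no version. The intensities are linear and, per the deposited values, already scaled to 1 trimmed mean. A series table of the same intensities differed by at most 0.050. No replicates exist for any condition, and the number of arrays limits the precision.

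Each array was scaled to the mean of the 8 trimmed means (2% at each end; factors 0.99997 to 1.00003), 3 signals listed at 0 were raised to 0.1, and log2 was taken. Probe sets Present on at least 2 of 8 arrays were tested, 12832 after 64 controls were left out; all 10 granule probe sets passed. The R package limma (3.58.1, under R 4.3.3; lmFit, eBayes with trend) fitted genotype and the 4 treatments as terms (3 residual degrees of freedom), plus genotype by TNFa or genotype by VD3 (2 residual degrees of freedom). P-values were adjusted by Benjamini-Hochberg over all probe sets, with a threshold of 0.05. They measure the spread between matched arrays, which may be technical. Genes were named from the platform annotation (20393 probe sets with 1 symbol, 691 with several, 1606 with none). A gene Absent on all arrays of the dimmer side is given as at least N-fold, against the higher of its own and the array's lowest Present signal, from means of log2 values. Such a bound takes the Absent signals as measured and leaves out the error of the fit, so a higher signal floor can give a smaller fold. For lists, the brightest probe set of a gene was used. Named genes are the 10 members, list genes that were called or Present on all arrays, and the nearest profiles; exceptions are stated. The members and lists were chosen with earlier results of these data known.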

Additional observations from a re-analysis of the deposited data

Results flagged for a closer look

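Cd177 was picked out because its TNFa response differed between cells with and without VD3 by a test of that difference. The log2 change with TNFa was higher with VD3 by 2.55 ± 0.38 (SE, limma adjusted p = 0.0224), and it was 0.02 and 0.40 in VDRmut and VDRwt with VD3, against -2.18 and -2.50 without it. Cd177 was Absent on both arrays of TNFa alone, so the size is an estimate. Leaving out any 1 array gave a difference of 2.38 to 2.73. The call was lost when any 1 of 6 arrays was left out (all but the VDRmut TNFa and VDRwt untreated arrays), without both arrays of low actin ratio, without the filter on low signals and with a signal floor of 50, and over all alternatives the adjusted p ranged from 0.0201 to 0.253.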

How the results depend on the processing

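The count of granule genes called higher in VDRmut (6) was 2 without a filter on low signals, 3 with a filter of Present on all 8 arrays (5 of the 10 testable, among them 3 of the 6, all called), 0 with a signal floor of 50, 0 with eBayes without trend, 0 in a model with 1 TNFa effect for both VD3 states and a VD3 effect in each genotype, 3 without both arrays of TNFa alone (chosen after seeing the data) and 1 to 5 when single arrays were left out. The count lower with TNFa alone (7) was 2 with the signal floor, 0 in that model, 3 with scan day as a block and 3 to 8 without single arrays. The 1 call for the difference between the TNFa responses became 0 without the filter and 0 with the signal floor, and 0 to 3 without single arrays. The 6 calls for VD3 among TNFa cells became 2 without the filter, 0 with the signal floor, 2 without trend, 0 in that model and 1 to 6 without single arrays. The cause was not tested. No alternative reversed a called gene. Over all probe sets the counts ranged from 0 to 8 for genotype (8 in the model as described), 29 to 1418 for TNFa alone (1418), 0 to 692 for TNFa with VD3 (103), 7 to 470 for the difference (227), 0 to 1176 for VD3 among TNFa cells (894), 0 to 59 for VD3 alone (0) and 0 to 18 for genotype by VD3 (0). Genotype could not be fitted with scan day as a block, nor the interactions with genotype without both arrays of low actin ratio. The labels carry no replicate numbers, so arrays of the 2 genotypes were matched by treatment only, through the treatment terms of the model. Absent signals limit Camp, Cd177 and Mpo.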
